A study of Homo sapiens with 48 samples.

Results

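The 8 genes described here encode the subunits of TRiC/CCT, the chaperonin of the cytosol: TCP1, CCT2, CCT3, CCT4, CCT5, CCT6A, CCT7 and CCT8. They were taken by symbol from the matrix of gene counts and make up 8 of its 33892 rows. Each has a single row, no identifier shared with another row, and passed the filter on low counts in every cell line. The rule uses no measured value, but the genes were proposed with earlier results of these data known.

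TRiC is a double ring in which every ring holds 1 copy of each subunit, so all 8 gene products are needed to build it. It binds unfolded proteins inside its cavity, closes over them using ATP and releases them folded. Actin and the tubulins are its best known substrates, handed over by the prefoldin complex and by HSP70, while phosducin-like proteins act as partners of the ring.

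The study treated 8 established human cancer cell lines for 24 h with carfilzomib, which blocks the proteasome irreversibly, or with the solvent DMSO. The drug was dosed at each line's own IC50 for proteasome activity, so the concentration may differ between lines. RKO and DLD-1 came from colon cancer, H-23 and H-1299 from lung cancer, PANC-1 and CAPAN-2 from pancreatic cancer, and H-929 and RPMI from multiple myeloma. Each of the 16 groups had 3 biological replicates, which gave 48 RNA-seq libraries. A line is a single model of its tumour type. In bulk RNA, fewer expressing cells and less RNA per cell cannot be told apart.

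Library totals ran from 9.12 M (mega) to 64.4 M counts, and a subunit had between 860 and 82756 counts in a library. Together the 8 subunits took 0.202% to 0.647% of a library's counts, with a median of 0.364%. All 8 plasma cell markers checked were above 1 CPM (counts scaled to a common library total after adjustment by the TMM factor) in the DMSO libraries of H-929 and RPMI, with sums of 12231 to 13076 and 7076 to 8087 CPM, against at most 580 CPM in any other line. The 5 epithelial markers were all above 1 CPM in DLD-1, H-23, PANC-1 and CAPAN-2, but only 3 were in RKO and 2 in H-1299. Only 1 was above it in H-929, and 4 were in RPMI at summed levels of 221 to 227 CPM. The colon line RKO summed to only 128 to 152 CPM, so the epithelial markers do not set RKO apart from RPMI. The carfilzomib libraries of both myeloma lines differed in composition from DMSO, those of H-929 the most. In H-929 protein-coding genes took 85.5% to 87.2% of the counts after carfilzomib against 93.7% to 94.2% in DMSO. The 50 most abundant genes took 21.4% to 22.9% there against 15% to 15.4%, and totals were 9.12 to 9.93 M against 14.6 to 18.9 M. In RPMI the protein-coding share was 91% to 91.8% after carfilzomib and 93.9% to 94.4% in DMSO. The 50 most abundant genes of RPMI took 19.2% to 19.4% against 14.2% to 15%.

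In GENCODE release 29 on GRCh38 the genes lie on 7 chromosomes. TCP1 (ENSG00000120438) spans chr6:159778498-159789749 on the minus strand, CCT2 (ENSG00000166226) chr12:69585334-69601570 on the plus strand, CCT3 (ENSG00000163468) chr1:156308968-156367873 on the minus strand and CCT4 (ENSG00000115484) chr2:61868089-61888804 on the minus strand. CCT5 (ENSG00000150753) spans chr5:10249921-10266412, CCT6A (ENSG00000146731) chr7:56051630-56063989 and CCT7 (ENSG00000135624) chr2:73233420-73253021, all on the plus strand, and CCT8 (ENSG00000156261) chr21:29055805-29073797 on the minus strand. The proteins are alike in size, from 531 residues for CCT6A to 556 for TCP1. ACAT2 overlaps TCP1, TSACC overlaps CCT3, COMMD1 overlaps CCT4, and an annotated antisense gene overlaps CCT4 and another CCT5, all on the opposite strand. On the same strand, SNORA20 and SNORA29 overlap TCP1, SNORA22B and SNORA15 overlap CCT6A, and AF129075.1 overlaps CCT8. It is not given in the sources used here whether counting used strand. Rows of pseudogenes and relatives of CCT6A held 1.55% to 8.46% as many counts as CCT6A itself, and those of the other subunits at most 1.02%, so a small part of the CCT6A counts is uncertain.

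RefSeq promoter entries (GRCh38.p14) of 6 subunits were used, and the 250 bases before the start were searched on both strands. CCT6A had no entry. The entry of CCT5, whose start lies 616 bases inside its GENCODE span, was left out by choice and held none of the motifs named here. Entries of CCT3 and CCT7 were kept, although their starts lie 29581 and 888 bases inside the spans. A three-unit heat shock element (GAANNTTCNNGAA), to which heat shock factors bind, was in 0 of the 6, and in 0.441% of all 35116 promoters. Its head-to-head pair (GAANNTTC, contained in the longer motif) was in TCP1 alone among the first entries, and in 5.78% of all promoters. CCT2 has a second entry, with its start at chr12:69585889, and that entry holds the head-to-head pair 89 bases before its start. The tail-to-tail pair (TTCNNGAA), also contained in the longer motif, was in 0 of the 6 and in 6.62% of all promoters. The CCAAT box, in 32% of all promoters, was in 4 of the 6, and the GC box (GGGCGG), in 42.6% of all, was also in 4. A match is only a description of letters. The heat shock pair and CCAAT sites of the first entries are shown because the subunits are compared here as one set. They are written 5′ to 3′ on the strand of the gene, with the motif in capitals (ATTGG is CCAAT read on the other strand).
TCP1 heat shock pair, chr6:159789816-159789843, minus strand: cgtttgaggcGAAGGTTCaacctcttcc
TCP1 CCAAT box, chr6:159789742-159789766, minus strand: cggctatctaATTGGacaaaaatgc
CCT2 CCAAT box, chr12:69585358-69585382, plus strand: ccgtggggctCCAATcaaaatggga
CCT3 CCAAT box, chr1:156338353-156338377, minus strand: aaggctgtcaATTGGtctgtttttg
CCT3 CCAAT box, chr1:156338312-156338336, minus strand: gggtgcggtgATTGGcgactacctt
CCT8 CCAAT box, chr21:29073697-29073721, minus strand: gggtgggctaATTGGagagccagga
CCT3 holds the CCAAT box at 2 positions, 75 and 34 bases before its start. The CCAAT sites of CCT2, CCT3 and CCT8 lie inside the wider GENCODE spans of those genes, that of TCP1 lies just outside its span, with only its printed flank reaching in, and the heat shock pair of TCP1 lies in an exon of its neighbour MRPL18.

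Without drug, the subunits were expressed in all 8 lines, at levels that differed between lines for each of the 8 (edgeR quasi-likelihood test across the DMSO groups, adjusted p at most 4.1e-28). That test called 97.6% of all genes, so the call is not particular to the chaperonin. These DMSO levels are in CPM with TMM scaling over all libraries. H-1299 had the highest TCP1, CCT2, CCT5 and CCT6A, and RPMI the highest CCT7 and CCT8. CCT3 was highest in H-929 at 1475 ± 43.7 CPM (SD, n = 3), with 1343 ± 25.2 CPM in H-23 and 1165 ± 40.4 CPM in RPMI, and lowest in DLD-1 at 248.2 ± 15.3 CPM. CCT4 had a different order and was highest in DLD-1 at 774.1 ± 16.4 CPM and lowest in RKO at 145.3 ± 1.36 CPM.

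TCP1, the founding member of the family, was at 1201 ± 78.0 CPM in H-1299 and 995.5 ± 37.9 CPM in RPMI, ahead of 463.0 ± 21.6 in DLD-1, 431.3 ± 7.22 in PANC-1 and 353.9 ± 10.2 in H-23. RKO, CAPAN-2 and H-929 came last, at 213.9 ± 2.26, 195.6 ± 21.1 and 191.6 ± 10.2 CPM, and the libraries of neighbouring lines among these last lines overlapped. H-929 thus held the most CCT3 of the 8 lines, while its TCP1 was among the lowest and overlapped with that of CAPAN-2. CCT2 ranged from 760.9 ± 61.7 CPM in H-1299 to 139.4 CPM in CAPAN-2, whose libraries held 128.0 to 146.6 CPM. CCT6A ranged from 893.4 ± 30.8 in H-1299 to 237.3 ± 7.72 in RKO, and CCT8 from 707.0 ± 34.7 in RPMI to 210.6 ± 5.99 in PANC-1. The ratio of the highest to the lowest line was widest for TCP1 (6.27) and CCT3 (5.94) and narrowest for CCT7 (2.60) and CCT5 (2.56). CCT5 lay between 540.0 and 565.6 CPM in CAPAN-2, PANC-1, RPMI and DLD-1, where libraries of neighbouring lines overlapped. Per kilobase of the principal transcript, CCT3 had the highest median level over the lines, 313.7 CPM per kb, and it was also first when the length of all exons was used. The order of the other 7 depended on which length was used.

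**Figure D1:**
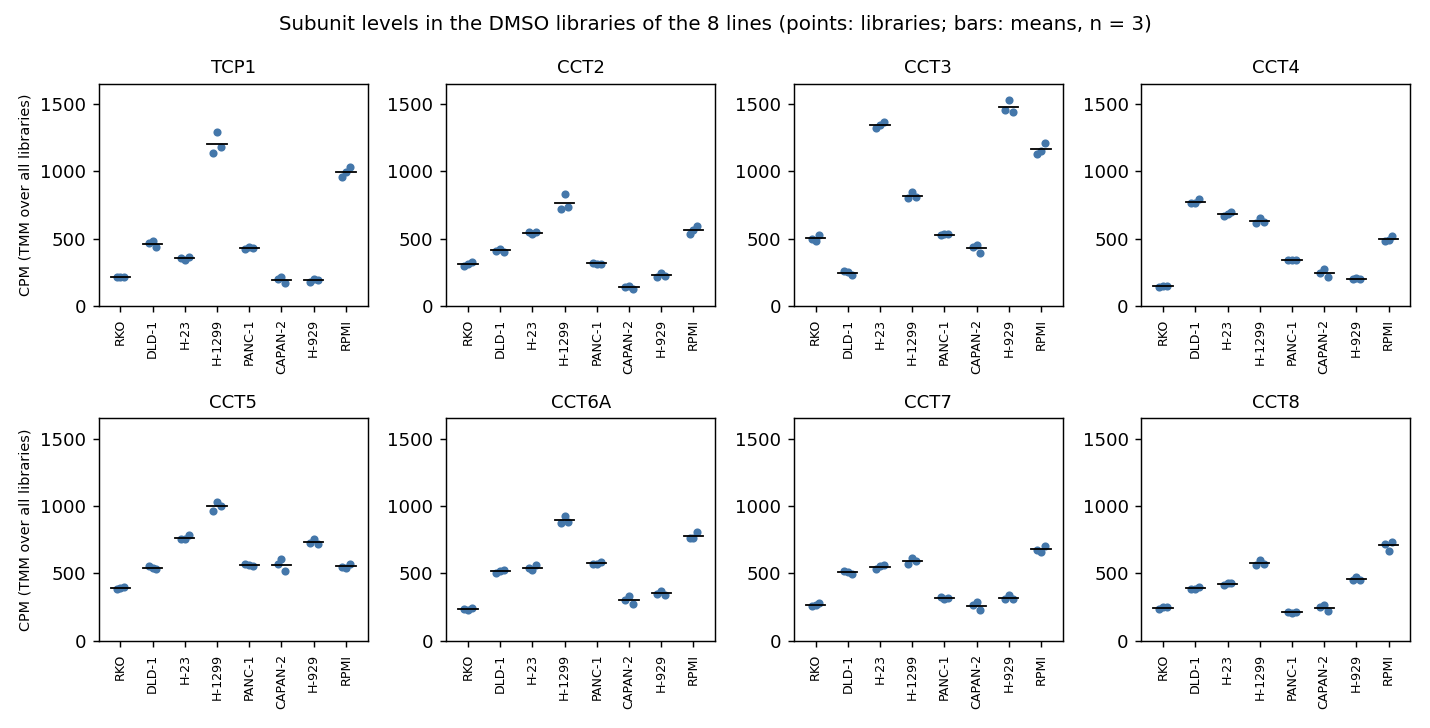
Level of each subunit in the DMSO libraries of the 8 lines, in CPM with TMM scaling over all libraries; points are libraries and bars are means of 3. CCT3 in H-929, H-23 and RPMI is at least 1131 CPM, while TCP1 in H-929 is at most 198.5 CPM.

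Carfilzomib did not move the chaperonin mRNAs in one direction in all lines. Of 64 pairs of a subunit and a line, 13 were called higher and 29 lower than in DMSO at an adjusted p under 0.05 in edgeR's test, and 22 were not called. Of all 129977 such pairs over the genes tested in each line, 20.8% were called higher and 21.1% lower. The 3 carfilzomib and 3 DMSO libraries did not overlap in 49 of the 64 pairs, 14 that were higher and 35 that were lower. Of all pairs 52.1% were free of overlap, and 26.1% were lower without overlap. No line had all 8 subunits higher, and H-929 alone had all 8 lower. TCP1, CCT2, CCT3, CCT4 and CCT8 were called in both directions in different lines, as were 47.8% of the 11622 genes tested in every line. CCT5, CCT6A and CCT7 were called higher in no line by these fits of single lines, and the share of all genes like this was not counted.

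**Figure D2:**
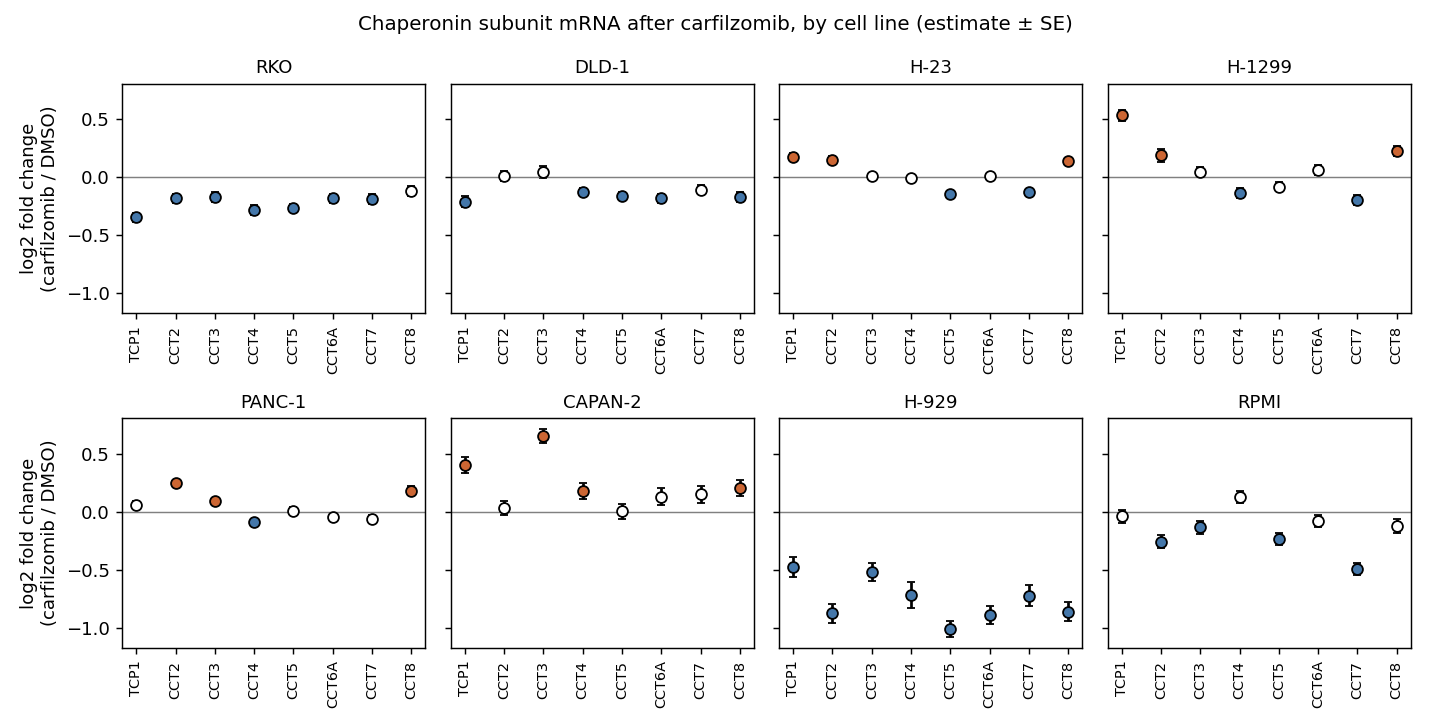
Log2 fold change of each subunit, carfilzomib over DMSO, in each line, with its standard error; filled points were called higher (orange) or lower (blue) and open points were not called. H-929 has all 8 subunits between -1.01 and -0.48, while in CAPAN-2 none is below 0.

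H-929 lost the most chaperonin mRNA. All 8 subunits were called lower and 0 higher there, where 26.2% and 26.4% of the 15682 genes tested were. For none did the libraries of the 2 treatments overlap, while 29.5% of all genes were lower without overlap. Summed over the subunits the level went from 3601, 3788 and 3616 CPM in DMSO to 2451, 2156 and 2099 CPM after carfilzomib, 0.609 of the DMSO mean. Within-line CPM use TMM scaling over that line's 6 libraries. The median log2 fold change of the 8 was -0.79, against 0.03 over all genes tested in H-929, where 9.73% of the genes lay below the median of the subunits.

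CCT5 fell the most in H-929. Its DMSO libraries held 669.7, 693.6 and 669.4 CPM and its carfilzomib libraries 356.8, 324.3 and 325.8 CPM, with a wide gap between the treatments (log2 fold change -1.01 ± 0.0701 (SE), adjusted p 4.6e-08). CCT2 went from 210.9 ± 14.4 to 114.9 ± 5.13 CPM (SD, n = 3; -0.88 ± 0.0811, adjusted p 7.4e-07). CCT6A and CCT8 gave like values, -0.89 ± 0.0785 and -0.86 ± 0.0831. CCT4 fell from 188.1, 192.0 and 187.2 CPM to 138.3, 111.3 and 93.86 CPM (-0.72 ± 0.112), with the treated libraries well apart from one another, and CCT7 by -0.72 ± 0.0906.

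CCT3 and TCP1 fell least in H-929. CCT3, the most abundant subunit of that line by counts per kilobase, went from 1349, 1405 and 1348 CPM to 1055, 905.7 and 902.4 CPM (-0.52 ± 0.0758, adjusted p 5.3e-05). TCP1 went from 166.4, 182.9 and 183.4 CPM to 139.9, 125.3 and 116.7 CPM (-0.48 ± 0.0865, adjusted p 3.2e-04). Both sets of treated libraries lay below every DMSO library. With counts, library totals and scaling taken from protein-coding genes alone, an alternative added after the composition of these libraries was seen, all 8 subunits were again lower, from -0.43 for TCP1 to -0.96 for CCT5. The 8 calls were present in every fit that left out 1 library. The part that the lower total counts of the treated H-929 libraries play was not tested.

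RPMI, the other myeloma line, lost much less. Its summed level went from 5240, 5196 and 5361 CPM to 4533, 5000 and 4767 CPM, 0.905 of DMSO, and 4 subunits were called lower and 0 higher, where 32.2% and 31.3% of all genes were called. CCT7 fell most, from 605.5, 588.6 and 610.9 CPM to 417.0, 435.1 and 429.6 CPM (-0.49 ± 0.0486, adjusted p 9.4e-07), with a wide gap between the treatments. CCT2 (-0.26 ± 0.0554) and CCT5 (-0.24 ± 0.0508) also fell without overlap. CCT3 was lower by a small margin (-0.14 ± 0.0539, adjusted p 0.0408), and without carfilzomib replicate 1 or 3, or DMSO replicate 2 or 3, it was not called. With protein-coding genes alone, CCT3 gave -0.11 with adjusted p 0.0673. It was also not called with DESeq2 size factors (-0.13, adjusted p 0.0523) or with a filter on a mean of at least 50 counts (-0.10, adjusted p 0.0910).

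CCT4 was the one subunit with higher values after carfilzomib in RPMI. Its DMSO libraries held 437.3, 435.9 and 451.8 CPM and its carfilzomib libraries 455.1, 499.9 and 490.7 CPM, which did not overlap (0.13 ± 0.0528), but the adjusted p of 0.0520 missed the threshold. With protein-coding genes alone it gave 0.15 with adjusted p 0.0141, and without carfilzomib replicate 1 it gave 0.16 with adjusted p 0.0214. TCP1 (-0.04), CCT6A (-0.08) and CCT8 (-0.12) were not called, but without carfilzomib replicate 2 CCT8 was called lower at -0.19. CCT8 was also called lower with no filter (-0.17, adjusted p 0.0190) and in one fit of all 48 libraries (-0.20, adjusted p 0.00268), which called CCT6A lower too (-0.16, adjusted p 0.0142). Tested directly, the effect was lower in H-929 than in RPMI for all 8 subunits, where 21.5% of all genes were called that way. The difference in log2 fold change ran from -0.31 ± 0.0881 for CCT7 (adjusted p 0.00349) to -0.93 ± 0.0967 for CCT4 (adjusted p 6.2e-11).

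The colon lines showed small losses. In RKO 7 of the 8 subunits were called lower and 0 higher, where 5.29% and 3.62% of all 14522 genes were called, and CCT8 (-0.12 ± 0.0411, adjusted p 0.0858) was not. TCP1 fell most, from 238.7, 240.3 and 235.9 CPM to 190.6, 185.3 and 185.8 CPM (-0.35 ± 0.0389, adjusted p 1.2e-04). CCT4 went from 162.4, 165.0 and 158.1 CPM to 129.4, 134.1 and 135.5 CPM (-0.28 ± 0.0432) and CCT5 from 429.0, 436.8 and 436.6 CPM to 362.3, 366.7 and 353.1 CPM (-0.27 ± 0.0371). In all 8 subunits of RKO every treated library lay below every control, as in 14.3% of all genes. The summed level was 0.864 of DMSO. CCT2, CCT3, CCT6A and CCT7, each between -0.19 and -0.17, lost their calls in at least 1 fit without a library, and without DMSO replicate 3 or carfilzomib replicate 3 only 4 subunits were called.

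In DLD-1, where 12.1% of all genes were called lower and 10.9% higher, 5 subunits were called lower and 0 higher. TCP1 went from 469.5, 497.1 and 454.9 CPM to 425.9, 393.7 and 406.3 CPM (-0.21 ± 0.0474, adjusted p 0.00867), without overlap. CCT6A (-0.18 ± 0.0397), CCT8 (-0.17 ± 0.0407), CCT5 (-0.16 ± 0.0384) and CCT4 (-0.13 ± 0.0375) followed, and CCT2 (0.01) and CCT3 (0.04) were close to no change, with overlapping libraries. The count rested on single libraries: 3 subunits were called lower without carfilzomib replicate 2 and 2 without carfilzomib replicate 3. CCT4 lost its call in 4 of the 6 such fits and with the replicate number as a block (adjusted p 0.0759), and CCT7 (-0.11, adjusted p 0.0638) gained one without DMSO replicate 3. The effects in RKO and DLD-1 did not differ by test for any subunit, with differences of RKO minus DLD-1 from -0.21 ± 0.0782 for CCT3 to 0.06 ± 0.0822 for CCT8. Of all genes, 1.80% were called higher and 2.24% lower in RKO by that test.

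In the lung lines subunits were called in both directions. In H-23 TCP1, CCT2 and CCT8 were called higher and CCT5 and CCT7 lower, where 17.7% of all genes were called higher and 16.2% lower, and the summed level stayed at 1.00 of DMSO. TCP1 went from 391.7, 385.7 and 398.7 CPM to 416.5, 455.2 and 451.2 CPM (0.17 ± 0.0367, adjusted p 0.00248). CCT5 went from 838.3, 841.7 and 858.4 CPM to 748.2, 770.2 and 775.0 CPM (-0.15 ± 0.0274, adjusted p 9.0e-04). Neither overlapped between treatments. CCT3, CCT4 and CCT6A lay between -0.01 and 0.01. One fit of all 48 libraries scales them together and shares one estimate of the spread. In it, 0 subunits of H-23 were called higher and 1 lower. Fold changes also shift in that fit, and TCP1 in H-23 gave 0.15.

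In H-1299 TCP1, CCT2 and CCT8 were again called higher, while CCT4 and CCT7 were lower. The DMSO libraries of TCP1 held 1036, 1198 and 1087 CPM and the carfilzomib libraries 1612, 1582 and 1603 CPM (0.53 ± 0.0494, adjusted p 1.0e-06), so that TCP1 rose most in the line that already had the most of it. CCT8 rose from 511.4, 559.7 and 529.2 CPM to 617.9, 612.5 and 641.4 CPM (0.23 ± 0.0428) and CCT2 by 0.19 ± 0.0560. CCT7 fell from 516.9, 569.5 and 548.7 CPM to 474.7, 488.7 and 461.9 CPM (-0.20 ± 0.0443) and CCT4 by -0.14 ± 0.0397. The 3 higher and 2 lower calls stood where 29.8% of all genes were called higher and 31.3% lower. Calls in both directions are thus not particular to the ring in H-1299. Scaling by library totals moved the median of all genes in H-1299 by -0.11 and that of the subunits from 0.05 to -0.06, with 2 subunits called higher and 3 lower. CCT2 also lost its call without DMSO replicate 3 (0.16, adjusted p 0.0527). CCT5 was called lower without DMSO replicate 1 (-0.12) and CCT6A higher without DMSO replicate 2 (0.09). Only TCP1 differed by test between the lung lines, by 0.31 ± 0.0846 in H-1299 minus H-23 (adjusted p 0.00304), where 13.3% of all genes were higher and 17.5% lower by that test, and it was not called without replicate 1.

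Of the 13 calls of a higher level, 7 were in the pancreatic and 6 in the lung lines. In PANC-1, with 20.5% of all genes called higher and 18.2% lower, CCT2, CCT3 and CCT8 were called higher and CCT4 lower. CCT2 went from 321.5, 317.6 and 315.9 CPM to 368.9, 372.7 and 388.9 CPM (0.24 ± 0.0305, adjusted p 3.9e-05), its highest value in any line, and the treatments did not overlap. CCT8 went from 214.4, 205.6 and 217.0 CPM to 232.8, 238.7 and 250.9 CPM (0.18 ± 0.0366). CCT3 (0.09 ± 0.0260) and CCT4 (-0.09 ± 0.0276) changed by little: CCT3 was not called in 4 of the 6 fits without 1 library, and CCT4 was not called without DMSO replicate 3 (adjusted p 0.0563).

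In CAPAN-2, where 25.7% of all genes were called higher and 26.7% lower, 4 subunits were called higher and 0 lower. CCT3 rose more than any subunit in any line, from 406.8, 415.8 and 363.6 CPM to 640.4, 613.0 and 611.4 CPM (0.65 ± 0.0603, adjusted p 4.6e-07). TCP1 rose from 186.2, 197.2 and 159.1 CPM to 240.8, 234.9 and 240.1 CPM (0.40 ± 0.0703, adjusted p 2.3e-04). Both were higher in all 3 treated libraries than in any control. CCT8 (0.20 ± 0.0663) and CCT4 (0.18 ± 0.0705) were called with less margin, CCT4 in only 1 of the 6 fits without 1 library. CCT5 (0.00 ± 0.0625) and CCT2 (0.03 ± 0.0607) were close to no change. DMSO replicate 3 was the lowest control library for all 8 subunits, and without DMSO replicate 2 CCT6A (0.22) and CCT7 (0.25) were also called higher. Without carfilzomib replicate 1, 2 subunits were called. The summed level was 1.18 of DMSO. Between the pancreatic lines, the effect was higher in CAPAN-2 for 5 subunits, where 13.5% of all genes were, against 11.4% lower: CCT3 by 0.59 ± 0.0774 (adjusted p 4.6e-08), TCP1 by 0.37, CCT4 by 0.29, CCT7 by 0.24 and CCT6A by 0.20 ± 0.0782 (adjusted p 0.0495). Without replicate 1 or 3 this count was 2.

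**Figure D3:**
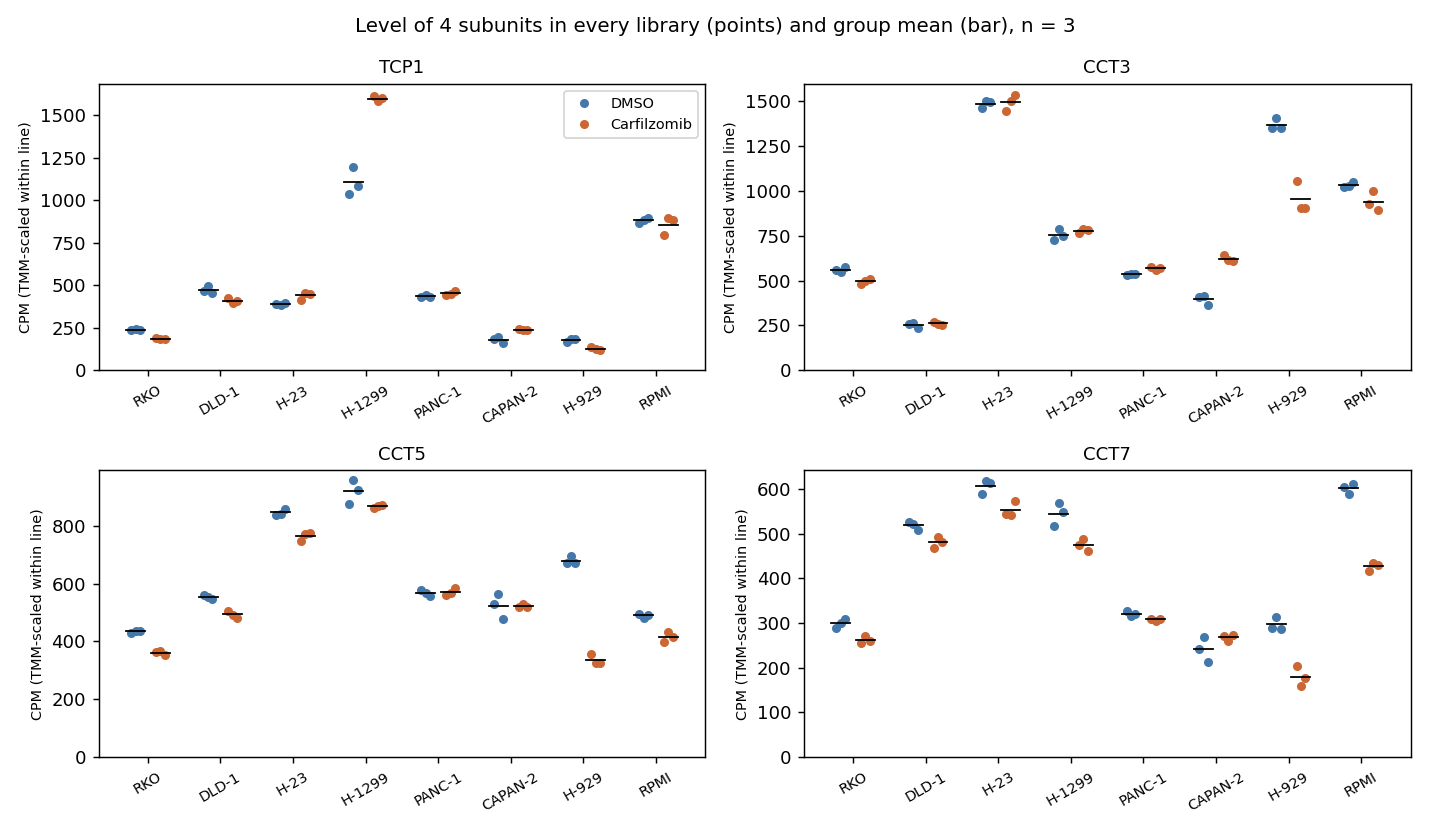
CPM of TCP1, CCT3, CCT5 and CCT7 in every library of the 8 lines, scaled within each line; points are libraries, bars are means of 3. TCP1 in H-1299 moves from at most 1198 to at least 1582 CPM and CCT3 in CAPAN-2 from at most 415.8 to at least 611.4 CPM, while CCT5 in H-929 drops from at least 669.4 to at most 356.8 CPM.

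Across lines, CCT4, CCT5 and CCT7 were each called lower in 5 of the 8, as were at least that often 9.94% of the genes tested in every line. CCT5 fell in RKO, DLD-1, H-23, H-929 and RPMI, and was lower without overlap but not called in H-1299 (-0.08, adjusted p 0.0929). CCT7 fell in RKO, both lung lines and both myeloma lines. CCT8 was called higher most often, in H-23, H-1299, PANC-1 and CAPAN-2, and lower in DLD-1 and H-929. TCP1 and CCT2 were each higher in 3 lines and lower in 3. The share of all genes with such numbers of calls was not counted. CCT6A, whose paralog CCT6B is known from testis, was called lower in RKO, DLD-1 and H-929, and in the one fit of all 48 libraries also in RPMI. That fit further called CCT5 lower in H-1299 (-0.15, adjusted p 0.00546) and CCT6A and CCT7 higher in CAPAN-2 (0.15 and 0.17, adjusted p 0.0320 and 0.0243). It did not call CCT7 in RKO (adjusted p 0.0521), CCT4 in DLD-1 (0.182), CCT2 in H-1299 (0.0777), or CCT3 and CCT4 in PANC-1 (0.397 and 0.395). CCT6B itself, at a few CPM, was called lower in CAPAN-2, where its libraries overlapped, and higher in RPMI. The lowest value of every subunit was in H-929.

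Averaged over the 8 lines in one fit, 6 subunits were called lower and 0 higher, where 23.9% of all genes were called lower and 19.8% higher. CCT5 had the lowest average, -0.28 ± 0.0166 (adjusted p 3.1e-19), followed by CCT7 at -0.26 ± 0.0216, CCT6A at -0.19 ± 0.0197, CCT4 at -0.18 ± 0.0235, CCT2 at -0.13 ± 0.0195 and CCT8 at -0.11 ± 0.0204. TCP1 (-0.03, adjusted p 0.271) and CCT3 (-0.04, adjusted p 0.0858) were not called. This fit scales the libraries of all lines together, and each of its averages was lower than the mean of the values from single lines. Those means ran from -0.24 for CCT5 to 0.01 for TCP1, with -0.07 for CCT8 and 0.00 for CCT3. The averages leaned on H-929. Without it TCP1 and CCT3 averaged 0.05 each and were called higher (adjusted p 0.0262 and 0.0244), CCT8 averaged 0.02 and CCT2 0.00 without a call, and CCT4, CCT5, CCT6A and CCT7 were called lower at -0.08, -0.15, -0.07 and -0.17. Without H-1299 TCP1 was called lower (-0.10), as it was without CAPAN-2 (-0.10) or H-23 (-0.06), and CCT3 was called lower without CAPAN-2 (-0.14), PANC-1 (-0.06) or DLD-1 (-0.05). With the 8 lines as the units in limma, 0 subunits were called and 0 had an unadjusted p under 0.05, while 57 genes were called higher and 45 lower. The effect differed between lines for all 8 subunits, with F from 21.62 for CCT4 to 63.19 for CCT5, in a test that called 67.7% of all genes.

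Because the 8 products are used in equal numbers in a ring, the share of each subunit within the counts of all 8 was also followed. This share does not depend on how libraries are scaled, but it does depend on transcript length. In H-1299 TCP1 made up 18.3%, 19% and 18.4% in DMSO and 24.8%, 24.4% and 24.3% after carfilzomib. In CAPAN-2 CCT3 went from 18.1%, 17.5% and 18.3% to 24.2%, 23.8% and 23.6%, while CCT5 went from 23.7%, 23.6% and 24.0% to a mean of 20.1% ± 0.48 (SD, n = 3). Shares add up to a whole, so a larger share of one subunit lowers the others: the level of CCT5 in CAPAN-2 was 523.0 CPM in DMSO and 523.3 CPM after carfilzomib. In H-929, where every subunit fell, CCT3 rose in share from 37.5%, 37.1% and 37.3% to a mean of 42.7% ± 0.59 (SD, n = 3), and CCT5 declined from 18.6%, 18.3% and 18.5% to 14.6%, 15% and 15.5%. In RPMI CCT7 went from a mean of 11.4% to 8.97% and CCT4 from 8.39% to 10.1%. The treated and control libraries did not overlap in any of these. Such separation was common among the shares of all 8 subunits, and the cases named are among the largest shifts. The share of CCT5 was lower after carfilzomib without overlap in 7 of the 8 lines, the exception being PANC-1, where the libraries overlapped. The share of CCT8 was free of overlap in every line but RPMI, in both directions. Every other subunit was also free of overlap in most lines, so separation in most lines is not particular to CCT5 or CCT8.

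**Figure D4:**
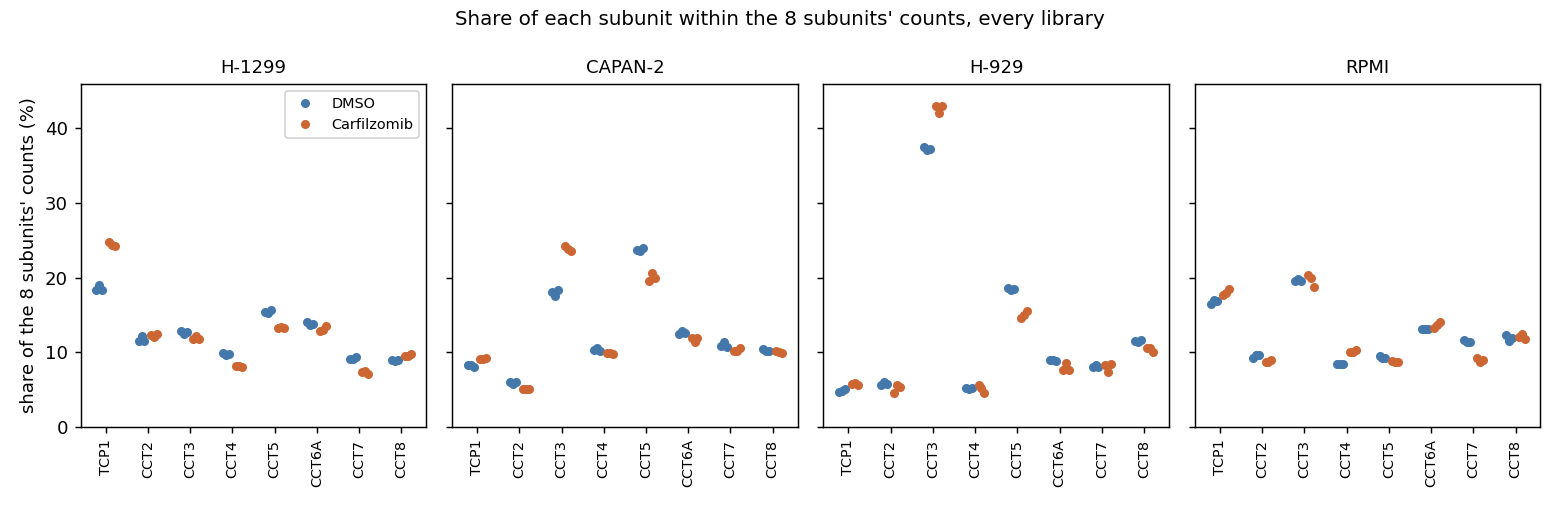
Share of each subunit in the counts of all 8, in percent, for every library of RPMI, H-929, CAPAN-2 and H-1299. TCP1 in H-1299 and CCT3 in CAPAN-2 and H-929 each gain more than 5 points, and CCT5 in CAPAN-2 and H-929 loses more than 3.

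As a description, the log2 fold changes of pairs of subunits over the 8 lines had a median Pearson correlation of 0.812 over the 28 pairs, from 0.605 to 0.973. Without H-929 the median was 0.592 and the range -0.096 to 0.947. The points share the libraries of a line and their scaling. Of 11366 other genes tested in all lines, the 5 whose 8 fold changes were most like the mean of the subunits were EIF2S1, a subunit of the translation initiation factor eIF2 (r = 0.991), RAB10, a small GTPase of membrane traffic (0.991), ASNSD1 (0.989), RALA, a small GTPase related to RAS (0.986), and MAT2B, the regulatory subunit of methionine adenosyltransferase (0.984). Each is lowest in H-929 and highest in CAPAN-2, and without H-929 their correlations were 0.945 to 0.974. None of the 5 was among the first 5 by Spearman's correlation.

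The partners of the ring did not all move with it. Prefoldin, which delivers nascent actin and tubulin, has 6 genes, of which 5 were tested. PFDN6, whose row shares its identifier, did not pass the filter on low counts. Averaged over lines 4 of the 5 rose and 0 fell, where 19.8% and 23.9% of all genes did. PFDN4 rose in 7 lines, most in RPMI from 28.87, 31.85 and 31.17 CPM to 68.36, 70.12 and 72.75 CPM (1.20 ± 0.0623, adjusted p 1.8e-09), where 4 subunits of the ring fell. PFDN2 averaged -0.01 and was not called. In H-929 PFDN2 fell with the ring, from 148.2, 160.3 and 156.9 CPM to 116.2, 101.7 and 119.0 CPM (-0.47 ± 0.0846), and 2 of the 5 prefoldin genes were called higher there and 2 lower, where 26.4% and 26.2% of all genes were. Of the phosducin-like genes 2 of 4 were higher on average and 1 lower. The one that was lower, PDCL3, averaged -0.11 ± 0.0307, with -0.51 in H-929 and 0.34 in RPMI, and PDCL2 was tested in only 2 lines and called in neither.

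The tubulin folding cofactors take over tubulin from the ring. Averaged over lines 2 of 5 were higher and 2 lower, and 1 of the lower 2, TBCD, shares its identifier with another row and is uncertain, as is TBCE, which was not called. TBCA, which binds beta-tubulin, rose in 7 lines, most in CAPAN-2 from 72.62, 70.92 and 56.82 CPM to 186.9, 185.9 and 205.2 CPM (1.53 ± 0.0830). Of 13 listed actin and tubulin genes 12 were tested, and 7 were higher on average and 4 lower. TUBB, a beta-tubulin whose row shares its identifier, did not pass the filter on low counts. For the averages of both lists, 19.8% of all genes were called higher and 23.9% lower. ACTB, cytoplasmic beta-actin, fell in 6 lines and most in RPMI, from 2892, 2883 and 3146 CPM to 1329, 1279 and 1218 CPM (-1.22 ± 0.0548). TUBA1B, a main alpha-tubulin, fell in 5 lines, with 687.2, 717.7 and 665.3 CPM in DMSO against 390.9, 311.3 and 338.6 CPM after carfilzomib in H-929 (-0.99 ± 0.0847). TUBA4A and TUBB2A, a less abundant alpha- and beta-tubulin, rose in 7 lines each. In H-929 TUBB2A went from 9.849, 10.17 and 11.27 CPM to 40.50, 33.10 and 37.22 CPM (1.83 ± 0.136). In H-1299 TUBA4A went from 0.5627, 0.3299 and 0.3514 CPM to 7.473, 8.023 and 7.216 CPM (4.13 ± 0.219).

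Of 10 other substrates, which include WD-repeat proteins and cell-cycle regulators, 7 were lower on average and 2 higher. MLST8, the WD-repeat subunit of the mTOR complexes, averaged -0.37 ± 0.0319 and fell most in H-1299, from 25.07, 23.93 and 27.74 CPM to 10.93, 14.17 and 10.26 CPM (-1.11 ± 0.115). GNB1, a beta subunit of heterotrimeric G proteins, averaged -0.27 ± 0.0207, with -0.83 ± 0.0779 in H-929. STAT3, a transcription factor, and FZR1, an activator of the anaphase-promoting complex, were the 2 that were higher, by 0.08 ± 0.0175 and 0.09 ± 0.0268. All of these averages are over the 8 lines in one fit, in which 23.9% of all genes were lower and 19.8% higher. Some of the 7 lower averages were small and came from lines with calls in both directions. Unlike those of the subunits, the averages of the other lists were not followed without 1 line or with lines as the units.

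Genes of the HSP70 and HSP90 system mostly rose. Of the 11 genes listed here 9 were higher on average and 0 lower, where 19.8% and 23.9% of all genes were. HSPA4, an HSP110-family partner of HSP70, averaged 0.04 (adjusted p 0.0829) and was not called, nor was CHORDC1, which shares its identifier, is uncertain and is left out of the counts and medians by line. Over the 10 others, the medians of the 2 lists were farthest apart in H-929, where 7 of the 10 rose and 1, HSPA4, fell (26.4% and 26.2% of all genes), with a median of 0.96 against -0.79 for the 8 subunits. DNAJB1, the HSP40 co-chaperone of HSP70, went there from 46.11, 45.27 and 49.30 CPM to 1213, 1258 and 1356 CPM (4.77 ± 0.0846, adjusted p 7.6e-14), while each subunit of the ring fell. HSPA4 went from 415.1, 430.2 and 417.9 CPM to 308.4, 299.2 and 291.1 CPM (-0.49 ± 0.0677). In RPMI 8 of the 10 rose and 0 fell (31.3% and 32.2% of all genes), with a median of 1.05 against -0.13 for the subunits. BAG3, a co-chaperone linking HSP70 to autophagy, went from 27.89, 27.50 and 32.21 CPM to 181.1, 208.3 and 269.0 CPM there (2.90 ± 0.124).

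In RKO and DLD-1 most of the HSP70 and HSP90 genes fell, as most subunits of the ring did. In RKO 8 of 10 were lower and 0 higher, where 5.29% and 3.62% of all genes were, with a median of -0.50. In DLD-1 6 were lower and 0 higher, where 12.1% and 10.9% of all genes were, with a median of -0.24. DNAJB1 went from 113.8, 107.9 and 103.2 CPM to 76.03, 70.75 and 68.28 CPM in RKO (-0.59 ± 0.0591), and STIP1, which joins HSP70 to HSP90, from 321.9, 313.7 and 322.8 CPM to 248.2, 240.7 and 239.2 CPM (-0.40 ± 0.0386). In H-1299, where 29.8% of all genes were called higher, 10 of the 10 rose with a median of 1.17, while the median of the subunits was 0.05. In CAPAN-2, where 25.7% were, 10 of the 10 rose with a median of 0.57. In PANC-1 7 rose and 1 fell, where 20.5% and 18.2% of all genes did, and in H-23 5 rose and 0 fell, where 17.7% and 16.2% did. The differences between the lists were not tested.

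**Figure D5:**
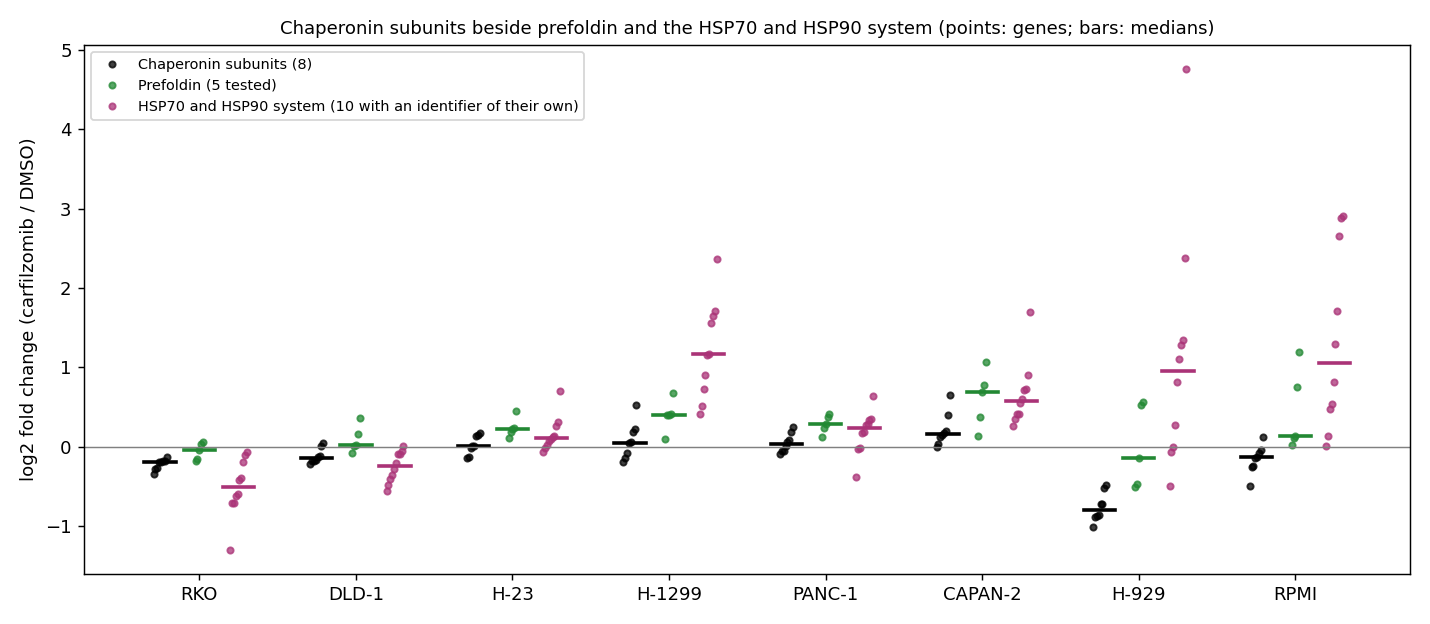
Log2 fold change, carfilzomib over DMSO, of the 8 chaperonin subunits, 5 prefoldin genes and 10 genes of the HSP70 and HSP90 system (without CHORDC1) in each line; points are genes and bars are medians. The medians of the subunits and of the HSP70 and HSP90 genes are -0.79 and 0.96 in H-929, and both are below 0 in RKO and DLD-1.

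The mitochondrial chaperonin, which has the same task in another compartment, differed from the ring in H-929. HSPD1, its barrel subunit, rose there from 672.0, 704.6 and 632.3 CPM to 977.9, 963.6 and 925.4 CPM (0.51 ± 0.0696) and HSPE1, its lid, from 9.678, 10.60 and 7.810 CPM to 21.16, 27.60 and 25.43 CPM (1.40 ± 0.169). In RPMI the pair split, with HSPD1 at 0.71 ± 0.0574 and HSPE1 at -0.39 ± 0.0560. In RKO HSPD1 fell from 600.9, 658.3 and 645.3 CPM to 486.2, 512.8 and 481.4 CPM (-0.36 ± 0.0446), in the same direction as 7 subunits of the ring. HSF2, a heat shock factor, averaged 0.30 ± 0.0347 and rose in 5 lines, most in H-1299 from 49.75, 55.70 and 51.93 CPM to 144.2, 140.8 and 135.7 CPM (1.42 ± 0.0517). It was not called in H-929 (-0.46). HSF1, whose row shares its identifier, did not pass the filter on low counts.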

How the data were processed

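The authors deposited raw counts of reads, 1 row a gene and 1 column a library (48). Per the submitters' processing notes, bcl2fastq 2.19, FastQC, Trimmomatic, HISAT2 and DESeq2 were used with build hg38. The counting program, the annotation and the use of strand are not given in the sources used here. The labels' protocols name stranded total RNA libraries. Each line's 6 libraries were fitted with edgeR 4.0.16 (R 4.3.3; TMM, filterByExpr, quasi-likelihood F test, Benjamini-Hochberg adjusted p under 0.05 over all genes). One fit of 16 groups, with TMM over all 48 libraries, gave averages and differences between lines. The scripts were tested on simulated data. CPM are counts over the TMM-scaled total. No pair of replicates looked like 1 library deposited repeatedly (lowest chi-square over its degrees of freedom 3.47). Molecular identifiers are not given in the sources used here, so reads may not be independent.

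The members, the lists and the tests were chosen with earlier results of these data known. Named besides the 8 subunits were the genes with the highest and the lowest average change in each list (2 each way in lists of over 6 genes, 1 each way in shorter ones), all genes of lists of 1 or 2 genes, and the 5 genes of like pattern. HSPD1 and HSPE1 in several lines, STIP1 in RKO and other named values by line were chosen after they were seen, as was the omission of CHORDC1 from counts by line. TBCE and PDCL2 had too few counts for an error. Alternatives were DESeq2 size factors, library totals, a filter on a mean of 50 counts or none, the replicate number as a block, DESeq2 1.42.0's Wald test, one fit of all 48 libraries, lines as units (limma 3.58.1), protein-coding genes alone, and leaving out each library, line or replicate number in turn. Protein-coding genes were identified from GENCODE release 29, which matched 87.6% of the rows by identifier. No column of the matrix was left without a sample.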

Additional observations from a re-analysis of the deposited data

Results flagged for a closer look

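The effect of carfilzomib differed between the 8 lines for every subunit, by the F test of the joint fit: F was 36.85 for TCP1, 50.46 for CCT2, 46.64 for CCT3, 21.62 for CCT4, 63.19 for CCT5, 39.83 for CCT6A, 27.34 for CCT7 and 47.54 for CCT8. The same test called 67.7% of all genes.

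Between lines of the same tumour type, calls were made in 3 of the 4 types. In the lung lines 1 of 8 subunits was called, where 13.3% of all genes were higher and 17.5% lower: TCP1 was higher in H-1299 than in H-23 by 0.31 on the log2 scale, and it was not called without replicate 1. In the pancreatic lines 5 of 8 were called higher, where 13.5% of all genes were higher and 11.4% lower, and 2 without replicate 1 or 3. The difference of CAPAN-2 minus PANC-1 was 0.37 for TCP1, 0.59 for CCT3, 0.29 for CCT4, 0.20 for CCT6A and 0.24 for CCT7. In the myeloma lines all 8 were called lower, where 21.5% of all genes were lower and 18.9% higher. The difference of H-929 minus RPMI was -0.52 for TCP1, -0.70 for CCT2, -0.47 for CCT3, -0.93 for CCT4, -0.86 for CCT5, -0.89 for CCT6A, -0.31 for CCT7 and -0.82 for CCT8.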

How the results depend on the processing

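The calls of all 8 subunits as lower in H-929 were present under every alternative run, and in 8 of 8 subunits without each library. Elsewhere small changes moved across the threshold. PANC-1 had 0 subunits lower with no filter or in one fit of all 48 libraries, and H-23 had 0 higher and 1 lower in that fit. RPMI had 1 subunit higher under library totals, a mean of at least 50 counts, DESeq2's Wald test, protein-coding genes alone and the replicate block. The pancreatic difference was called higher in CAPAN-2 for 3 subunits and lower for 1 under DESeq2 size factors, library totals or no filter, and lower for 1 with a mean of at least 50 counts, a setting that also gave 1 lower call between the colon lines. The cause of these shifts was not tested. With lines as the units the average was called lower for 0 subunits. Without H-929 it was called higher for 2, and 3 averages changed sign: TCP1 0.053, CCT3 0.048 and CCT8 0.0197.

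Without single libraries, the subunits called lower were 4 to 7 in RKO, 2 to 6 in DLD-1, 0 to 1 in PANC-1, 2 to 3 in H-1299 and 3 to 5 in RPMI. Those called higher were 2 to 6 in CAPAN-2, 2 to 4 in H-1299, 2 to 3 in PANC-1 and 0 to 1 in RPMI. Without a replicate number, the differences called higher were 0 to 1 in the lung lines and 2 to 5 in the pancreatic lines, and those called lower were 7 to 8 in the myeloma lines. Without 1 line, the averages called lower were 4 to 8 and those called higher 0 to 2.

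Same-numbered libraries did not deviate together: in 0 of the 8 lines was every correlation over 0.1, and in 1 line, H-23, did every library correlate best with its own number. With the replicate block, 62 of the 64 values kept their direction and call, CCT4 in DLD-1 lost its call and CCT4 in RPMI gained one. The p-values cover the spread between 3 cultures of a line. The lowest count of a subunit in a library was 860.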
